A study of Mus musculus with 2 samples.

Results

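Fibroblasts of mouse colorectal tumours are described here: 188 single-cell barcodes, 124 from the WT library and 64 from the cKO library, of 10189 barcodes that passed the quality limits and 16168 barcodes in all. They were chosen on measured values, as barcodes with 500 or more genes, 800 or more unique molecular identifiers (UMIs, each standing for 1 captured transcript) and at most 25% mitochondrial UMIs. A member also held 5 or more UMIs, and 10 or more per 10000, of Col1a1, Col1a2, Col3a1, Dcn and Pdgfra as a sum, fewer than 2 UMIs of Ptprc, and fewer than 2 of Pecam1 and Cdh5. The first 5 genes encode fibrillar collagens, the proteoglycan decorin and a platelet-derived growth factor receptor, and the last 3 mark leukocytes and endothelium. The level of these genes set who was a member and is no finding.

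The tumours grew in mice given azoxymethane (AOM), a carcinogen, and dextran sulfate sodium (DSS), which injures the colon lining. Both groups were Mtch2fl/fl, with a floxed gene for an outer mitochondrial membrane protein. The WT mice are labelled with no Cre, and the cKO mice also carried VilCre, in which Villin regulatory DNA drives Cre in intestinal epithelium, so the fibroblasts are not the cells that Cre targets. Tumours of a genotype were pooled and dissociated with trypsin into 1 10x Genomics library each, so no test between genotypes was possible. The labels give neither the number nor the age of the mice. All intervals are exact, at 95%, and cover counting error only, not differences between mice, tumours or dissociations.

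Fibroblasts lay down and remodel the matrix of the gut wall and supply the epithelium with Wnt ligands, R-spondins, BMP ligands and their antagonists, which together set where stem cells divide and where cells mature. In inflamed or tumour-bearing colon some of them make cytokines, chemokines and matrix-cutting proteases that draw in and instruct leukocytes. Contractile myofibroblasts, and a perivascular adventitial type marked by Pi16, are further forms of the lineage.

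NF-kB is a transcription factor through which IL-1 and TNF switch on cytokine and chemokine genes, so the promoters of the inflammatory genes described below were searched for its core, GGGNNTTTC, on both strands. Windows from 250 bases before to 50 bases after the start site matched 18 of the 26 genes by symbol in RefSeq, build GRCm38.p6. The core was found in 3 of these 18 (16.7%), against 5.06% of 27025 genes with a window of the same length. The 3 are Il6, Cxcl1 and Cxcl2, and the 250 bases before their start sites are shown because levels of these genes are described below, with each matched stretch in capitals (all on chromosome 5, plus strand: chr5:30012864-30013113, chr5:90890995-90891244 and chr5:90903649-90903898).
Il6: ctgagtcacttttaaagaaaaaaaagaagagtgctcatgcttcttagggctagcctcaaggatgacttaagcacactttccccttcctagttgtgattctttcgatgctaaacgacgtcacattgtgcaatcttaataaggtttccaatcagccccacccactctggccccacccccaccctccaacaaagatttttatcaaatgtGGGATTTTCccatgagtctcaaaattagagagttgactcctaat
Cxcl1: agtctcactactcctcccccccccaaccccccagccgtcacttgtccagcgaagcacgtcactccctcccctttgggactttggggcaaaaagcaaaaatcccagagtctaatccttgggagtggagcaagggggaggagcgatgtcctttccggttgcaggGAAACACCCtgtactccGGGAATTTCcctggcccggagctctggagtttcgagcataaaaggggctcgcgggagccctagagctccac
Cxcl2: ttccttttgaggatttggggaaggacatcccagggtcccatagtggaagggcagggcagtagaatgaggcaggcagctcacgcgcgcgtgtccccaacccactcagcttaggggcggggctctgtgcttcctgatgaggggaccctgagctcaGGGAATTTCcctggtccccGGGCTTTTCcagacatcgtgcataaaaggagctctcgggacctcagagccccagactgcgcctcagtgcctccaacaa
In Il6 the match GGGATTTTC begins 44 bases before the start site. Cxcl1 holds GGGAATTTC at 71 bases and, on the other strand, GAAACACCC at 88 bases before the start. Cxcl2 holds GGGAATTTC at 97 and GGGCTTTTC at 78 bases before it. A match is a description of letters and not a measured binding site.

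The name fits markers that the rule did not use, with 1 exception. A list of 20 other fibroblast genes, among them Sparc, Bgn, Lum, Mmp2 and the collagen VI genes, summed to 9642 UMIs per 1000000 (CPM) in WT members and 12736 CPM in cKO members. In epithelial barcodes, called by Epcam, Cdh1, Krt8 and Krt18, the same list stood at 15.4 and 16.6 CPM, and in Ptprc-positive immune barcodes at 119 and 136 CPM. Endothelial barcodes held more of it, at 1494 and 2347 CPM. Among the 20 genes that set the members apart most, by the ratio of their level to the highest level in epithelial, endothelial and immune barcodes, were Mmp3, a matrix metalloproteinase (109 and 214 CPM in WT and cKO members, at most 0.226 and 1.302 CPM elsewhere), Fgf10, a fibroblast growth factor for epithelium (104 and 64.3 CPM), the microfibril gene Mfap5 (87.8 and 564 CPM), the Wnt antagonist Sfrp2 (172 and 151 CPM) and the BMP ligand Bmp5 (321 and 183 CPM). The same 20 also hold the smooth muscle genes Myl9, Acta2 and Myh11, and Pcdh9 and Ncam1, adhesion genes also known from neural cells. The exception was cluster 2 below, in which the list of 20 stood at 3022 CPM against 10149 to 21398 CPM in the other clusters. Cluster 3 held the list of 20 at 13455 CPM. It was also the highest cluster on a list of 14 contractile genes (12022 CPM) and on the pericyte list (769 CPM). Whether its members are fibroblasts, smooth muscle cells or pericytes was not tested.

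Several defining genes of pericytes and glia were rare. Of the pericyte markers, Cspg4 held 5 and 2 UMIs in the WT and cKO members, Higd1b 0 and 5, and Cox4i2 none, while Rgs5 held 7 and 24 UMIs. The glial marker Sox10 held 2 and 0 UMIs. The glial list of 10 genes summed to 211 and 167 CPM, with 46.2% and 11.2% of its UMIs in 1 cell. Most of that sum was Scn7a, which was not rare. It stood at 140 and 160 CPM, in 28.2% and 48.4% of WT and cKO members, and is among the genes that set the members apart most. The pericyte list of 10 genes summed to 80.5 CPM (62.3 to 102) in WT members against 292 (257 to 331) in cKO members, with a log2 ratio of 1.85 (1.46 to 2.27), led by Abcc9 and Kcnj8, which encode parts of a potassium channel. A few cells held much of it: the top 5 cells had 39.4% of its 66 WT UMIs and 68.8% of its 250 cKO UMIs. Of the cKO UMIs, 123 lay in cluster 3 below.

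Members made up 2.09% of the kept WT barcodes (1.74 to 2.49%, 124 of 5925) and 1.501% of the kept cKO barcodes (1.16 to 1.91%, 64 of 4264). Among kept barcodes that were not epithelial the shares were 8.52% of 1455 and 3.22% of 1990. In 1 pool per genotype, fewer fibroblasts, more of other cells and unequal release in dissociation cannot be told apart. At the lower limit, the 3 lowest members held 10.7 to 11.8 marker UMIs per 10000 in WT and 11.6 to 22.5 in cKO. The highest barcodes left out for that limit held 9.79 in WT and 3.42 in cKO.

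The 2 sets of members differed in depth and in RNA of other cells, and these values stand beside every comparison that follows. WT members held a median of 3004 UMIs (847 to 70968) and cKO members 7231 (836 to 87053), or 819632 and 855763 UMIs in all. The epithelial list of 15 genes had a median of 65.7 UMIs per 10000 in WT members and 11.7 in cKO members, and haemoglobin list UMIs were present in 63 of 124 and 24 of 64. Y-linked UMIs without Xist marked 44 WT and 18 cKO members as male, and Xist without Y-linked UMIs marked 25 and 24 as female. Both were found in 8 WT and 10 cKO members and neither in 47 and 12, and these were not assigned. Cells of both sexes were thus seen in both libraries, but their proportions in the pools are not known. No member shared its barcode with the other library (22 of all barcodes did), and Scrublet marked 0 WT and 2 cKO members as doublets. Mtch2 itself stood at 65.9 CPM (49.5 to 85.96) in WT members and 52.6 (38.4 to 70.4) in cKO members, a log2 ratio of -0.32 (-0.93 to 0.27) from 54 and 45 UMIs, beside 92.4 and 24.3 CPM in epithelial barcodes. Whether the counted reads fall in the deleted exons was not tested. The 20 dissociation stress genes, immediate early and heat shock genes, summed to 15947 and 16177 CPM, a log2 ratio of 0.021 (-0.014 to 0.055). The balance was of the sums alone: the median cell held 156 UMIs per 10000 of the stress list in WT and 89.4 in cKO. Within clusters 1, 3 and 4 the stress list stood at -0.45, -0.38 and -0.78, in these 3 together at -0.47 (-0.52 to -0.41), and in male-assigned members at 0.29 (0.23 to 0.34). The part of dissociation stress in the results below was not tested.

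Clustering of the members, both libraries together and without the rule's genes, gave 6 clusters, of which 1 held WT cells only and 1 held cKO cells only. Cluster 0 held 59 WT cells and no cKO cell, cluster 1 20 and 14, cluster 2 20 and 7, cluster 3 9 and 16, cluster 4 16 and 6, and cluster 5 no WT cell and 21 cKO cells. Set at 3 counts, the limit that a count of 0 allows is 4.69% of the cKO members in cluster 0 and 2.42% of the WT members in cluster 5, and the exact 95% intervals reach 5.601% and 2.93%. With 1 library per genotype, a cluster of 1 library may be that library and not a kind of cell, so the clusters are called by number. The genes that lead a cluster were used to form it and are given as a description.

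**Figure D1:**
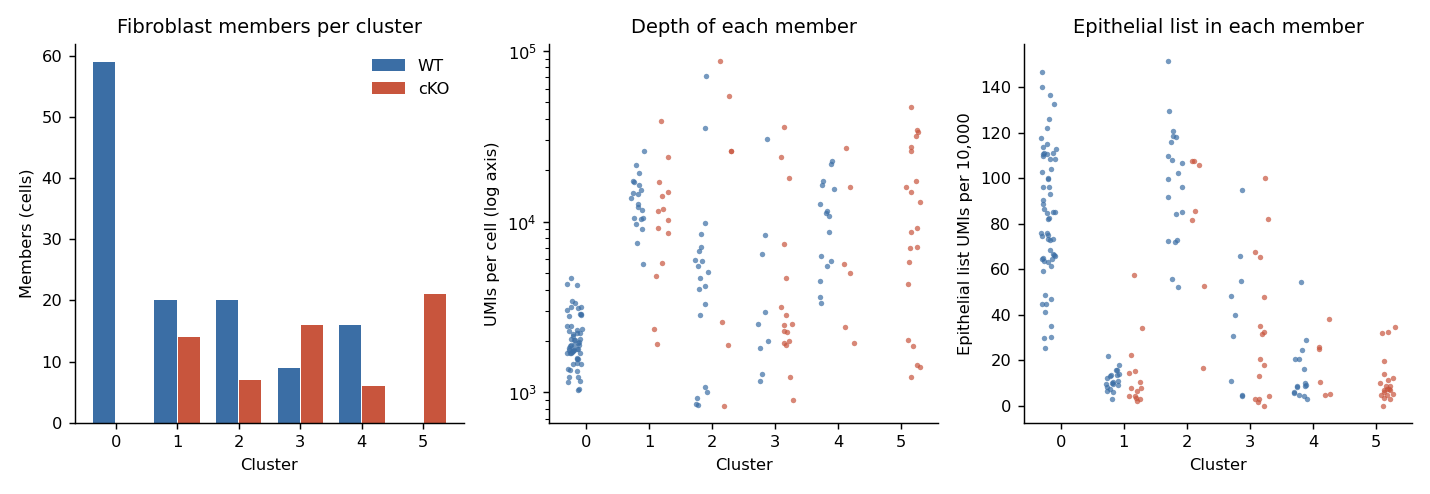
Left, members per cluster (bars, cells) in WT (blue) and cKO (red). Middle, UMIs of each member (points, log axis). Right, epithelial list UMIs per 10000 in each member. Cluster 0 has 59 WT cells with a median of 1902 UMIs, all with epithelial RNA, cluster 5 has 21 cKO cells, and clusters 0 and 2 lie highest on the right.

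Cluster 0, with 59 WT cells, was shallow (median 1902 UMIs) and carried RNA of several other cell types. Its leading genes were Epha3, an ephrin receptor (679 CPM, in 54.2% of its cells), Gdf10, a BMP family member (351 CPM), the T cell genes Il17a, Camk4, Ccl5, Satb1, Skap1 and Cd3g, and Esm1 and St6galnac3. Haemoglobin UMIs were found in 56 of the 59 cells with a median of 47, UMIs of the T and NK cell list in 34, and the epithelial list had a median of 84.5 UMIs per 10000. Of 69 kept WT barcodes with 100 or more haemoglobin UMIs per 10000, 48 were fibroblast members and 8 epithelial barcodes, while none of 20 such cKO barcodes was a member. Fibroblast genes of the cluster were well above those of cluster 2, with Lum, a collagen-binding proteoglycan, at 2708 CPM and Pi16 at 1166 CPM in 67.8% of cells.

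Cluster 1 (20 WT and 14 cKO cells) was led by Edil3, Lrrtm3, Frmpd4, Rad51b, Adam23, Ncam2, Adcy2, Clec3b, Hs6st3 and Cxcl13. It held high levels of secreted regulators: Grem1, a BMP antagonist, stood at 1239 CPM, the Wnt antagonist Sfrp2 at 393 CPM, the hepatocyte growth factor gene Hgf at 393 CPM, the B cell chemokine Cxcl13 at 699 CPM and Cxcl12 at 983 CPM. The complement gene C4b (1944 CPM) and the actin-binding gene Gsn (5138 CPM) were higher there than in any other cluster. Its cells were deep (median 12054 UMIs) with a median of 10.1 epithelial UMIs per 10000.

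Cluster 2 (20 WT and 7 cKO cells) was led by epithelial genes, among them Krt14, Krt17, Lgr5 and Notum, and by Pnliprp2, Mdga2, Mecom, Mt4 and Clstn2. Its cells had a median of only 24.4 rule marker UMIs per 10000, against 108 to 399.7 in the other clusters, and 99.6 epithelial UMIs per 10000. These barcodes pass the rule but carry epithelial RNA throughout, and the main counts below are therefore also given without clusters 0 and 2.

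Cluster 3 (9 WT and 16 cKO cells) was led by smooth muscle genes, Myh11 (1045 CPM, in 40% of cells), Actg2, Tagln, Lmod1, Cnn1 and Pgm5, with Trpc6, Hhip, Saa3 and Hp. Acta2, smooth muscle actin, stood at 2606 CPM, against 1104 CPM in cluster 4, 104 CPM in cluster 1 and 12.9 CPM in cluster 5. Grem1 was at 1292 CPM and the basement membrane collagen Col4a1 at 2178 CPM. The acute-phase gene Saa3 reached 4790.1 CPM in the cluster, but 702 of its UMIs came from 1 WT cell of 30429 UMIs that held 0 Myh11 UMIs.

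Cluster 4 (16 WT and 6 cKO cells) was led by Nrg1, the ERBB ligand neuregulin, at 4398 CPM in 90.9% of cells, with Sox6, Adgrl3, Col4a5, Il1rl1, Lrat, Emid1, Cntnap5a, Rbfox1 and Pde1c. Wnt5a, a Wnt ligand, stood at 607 CPM and was at 6.43 to 129 CPM in the other clusters. Bmp5 was at 1006 CPM there and at most 255 CPM elsewhere, Bmp4 at 616 CPM, and the basement membrane collagen Col18a1 at 1609 CPM. Nrg1, Sox6, Wnt5a and Bmp5 are known from the subepithelial fibroblasts that lie directly under the crypt and surface epithelium.

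Cluster 5 (21 cKO cells) was led by Cpxm1, Prg4, Depdc5, Ptx3, Ifi205, Csf3, Mfap5, Timp1, Adamtsl3 and Pcolce2. Matrix and inflammatory genes were high together: Tnc, the matrix glycoprotein tenascin C, stood at 3699 CPM, the crosslinking enzyme gene Lox at 1196 CPM, the hyaluronan-binding Tnfaip6 at 3796 CPM, the monocyte chemokine Ccl2 at 2722 CPM and Il6 at 691 CPM in 66.7% of cells. The rule markers themselves stood at 43512 CPM, against at most 19184 CPM in the other clusters. Wnt5a (6.43 CPM), Bmp5 (6.43 CPM) and Acta2 (12.9 CPM) were low in it.

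Clusters 0 and 5 each belong to 1 library, and both held the adventitial marker Pi16. The genes compared between them were chosen after their values were seen. Of 41 WT members with a Pi16 UMI 40 were in cluster 0, and of 17 cKO members 14 were in cluster 5, while clusters 1 to 4 held 1 and 3 such cells. Other genes of the Pi16 type list did not go with it. Clec3b (47.9 and 280 CPM), Gsn (1222 and 3632 CPM), Ly6c1, Cd34, Ly6a and Has1 were higher in cluster 5, and Pi16 in cluster 0 (1166 and 575 CPM). Igfbp6 and Sema3c had intervals that included 0, and Dpp4 held no UMI in either. The list summed to 3410 and 6572 CPM, below cluster 1 at 7848 CPM. Several genes had similar levels in both, among them Mmp2 (1254 and 1269.5 CPM), Col14a1 (791 and 629.9 CPM), Bgn (2172 and 2247 CPM) and Mmp3 (671 and 524 CPM), all of whose ratios had intervals that included 0. Other genes differed: the inflammatory gene Tnfaip6 was at 15.97 CPM in cluster 0 from 2 UMIs, the matrix genes Tnc and Timp1 at 39.9 and 31.9 CPM against 3699 and 1543 CPM in cluster 5, and Ccl2 was not detected in its 125206 UMIs. Median depths were 1902 and 9221 UMIs, and the foreign RNA of cluster 0 was given above. Genotype, library and depth cannot be told apart in this pair.

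**Figure D2:**
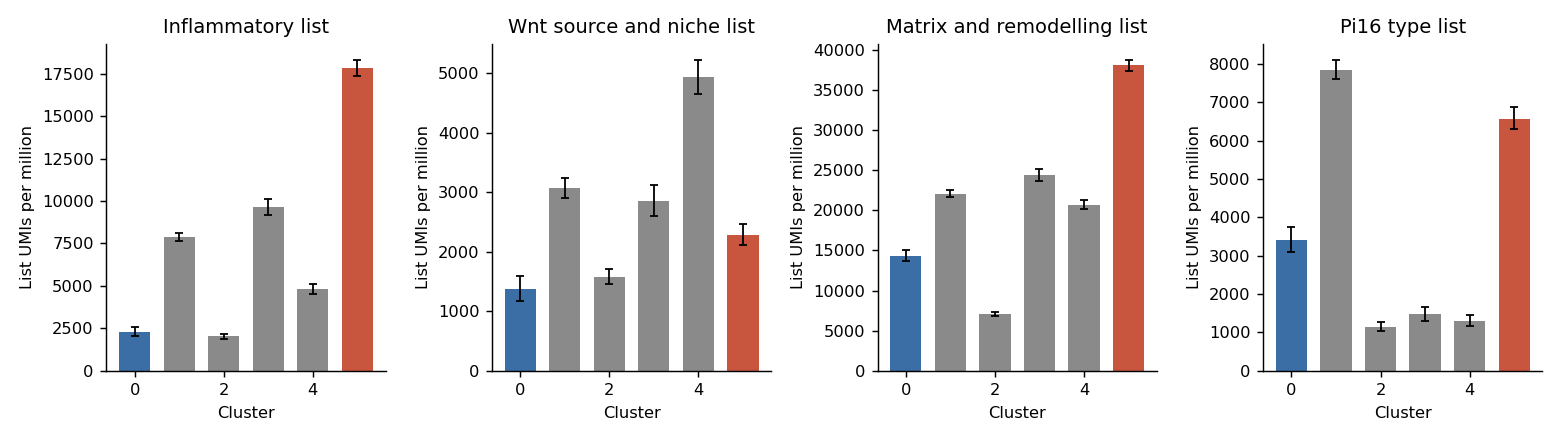
Summed level (bars, CPM) of 4 gene lists in each cluster, with exact Poisson 95% intervals. Blue is the cluster of WT cells only, red the cluster of cKO cells only and grey the clusters that both libraries fill. Cluster 5 is highest on the inflammatory and matrix lists, cluster 4 on the Wnt source list and cluster 1 on the Pi16 list.

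The inflammatory and matrix lists were both highest in cluster 5 and the Wnt source list in cluster 4. The inflammatory list (26 genes of cytokines, chemokines, their receptors and proteases) stood at 17856 CPM (17390 to 18332) in cluster 5, 9627 CPM (9167 to 10105) in cluster 3 and 7877 CPM (7619.9 to 8141) in cluster 1, and was lowest in clusters 0 and 2, at 2300.2 and 2031 CPM. The level of cluster 3 rests on 1 WT cell: without it the cluster stood at 3645 CPM (3335 to 3975). By the median cell clusters 3 and 4 held 21.6 and 25.5 inflammatory UMIs per 10000, cluster 0 19.7, cluster 2 30.1, cluster 1 31.8 and cluster 5 117. The Wnt source and niche list (25 genes of Wnt ligands, R-spondins, BMP ligands and their regulators) was highest in cluster 4, at 4941 CPM (4661 to 5233), and at 3072 CPM in cluster 1 and 2288 CPM in cluster 5. The matrix and remodelling list (37 genes) was at 38116 CPM (37433 to 38809) in cluster 5 and between 20698 and 24385 CPM in clusters 1, 3 and 4. In single cells the inflammatory list ranged from 4.903 to 241 UMIs per 10000 in cluster 1 and from 8.49 to 400.2 in cluster 5, so the clusters overlapped cell by cell.

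Between the libraries, summed over all members, more inflammatory genes were higher in cKO than lower, and a few cells held most of the signal. Of 26 genes, 23 were measured, meaning at 20 CPM or more in either library, and 17 were higher and 6 lower in cKO. At least 2-fold higher were 10 and at least 2-fold lower 3, where 4.57% and 6.23% of all 8118 measured genes passed those folds. The median log2 ratio of the 23 was 0.76, beside -0.062 for all measured genes. The list summed to 5698 CPM (5535 to 5864) in WT members against 9664 (9457 to 9875) in cKO members, with a log2 ratio of 0.76 (0.71 to 0.81). The top cell held 24.2% of the list's UMIs in WT and 22.8% in cKO, and the top 5 cells 49.98% and 56.6%.

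The clusters that both libraries fill did not share one direction. In clusters 1, 3 and 4 alone, which both libraries fill, the list's log2 ratio was -0.12 (-0.20 to -0.048), on the other side of 0, but that sign rests on 1 WT cell of cluster 3, named above, without which it was 0.28 (0.21 to 0.36). Within cluster 1 it was 0.68 (0.58 to 0.77), within cluster 3 -2.48 (-2.64 to -2.32) and within cluster 4 -0.52 (-0.74 to -0.30). The same cell held 1130 of the 1209 WT list UMIs of cluster 3, and without it cluster 3 was at 0.35 (0.0087 to 0.72). Over all members the ratio without that cell was 1.11 (1.05 to 1.16), and without the cell with most list UMIs of each library 0.82 (0.76 to 0.88). Without clusters 0 and 2 but with cluster 5 the ratio was 0.67 (0.62 to 0.73), with 11 genes at least 2-fold higher and 3 lower, against 6.12% and 10.1% of the genes measured in those cells. Without members holding 3 or more pericyte or smooth muscle UMIs, which left 115 WT and 45 cKO members, the ratio was 0.0058 (-0.066 to 0.077). Female-assigned members gave 1.70 (1.58 to 1.84) and male-assigned members -0.93 (-1.04 to -0.83), or -0.47 (-0.59 to -0.37) without the WT cell of cluster 3. The assigned sexes were spread unevenly over the clusters, as given further below.

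Among cytokines, Il6 stood at 82.96 CPM (64.4 to 105) in WT members against 284 (249 to 322) in cKO members (log2 ratio 1.77, 1.38 to 2.19). It was detected in 19 of 124 WT members (15.3%, 9.48 to 22.9%) and 18 of 64 cKO members (28.1%, 17.6 to 40.8%), and in 1.45% and 2.29% of epithelial barcodes, which should lack it and had medians of 6067 and 16171 UMIs. At 1500 UMIs drawn per cell, leaving out 19 WT and 6 cKO cells that were shallower, the expected shares were 8.49% and 18.3%. Of the 18 cKO cells with Il6, 14 were in cluster 5, and in clusters 3 and 4 no Il6 UMI was found. Il11, a cytokine of the same family, was at 90.3 CPM (70.9 to 113) in WT members against 337 (299 to 378) in cKO members (log2 ratio 1.89, 1.53 to 2.29), with 43.2% and 42.4% of its UMIs in 1 cell. Il6 and Il11 were on the other side of 0 in male-assigned members, at -0.31 and -3.72, and Il6 also in clusters 1, 3 and 4 alone, at -0.15. Il33, an alarmin, was at 58.6 and 212 CPM and was highest in clusters 5 (537 CPM) and 0 (216 CPM), and in clusters 1, 3 and 4 alone its log2 ratio was -2.61, on the other side of 0. Il1rl1, its receptor, was lower in the cKO sum (127 and 32.7 CPM, log2 ratio -1.94) and highest in cluster 4 (433 CPM). One WT cell held 68.3% of the WT Il1rl1 UMIs, and without members at 10 or more epithelial UMIs per 10000 the log2 ratio was 0.48, on the other side of 0. The neutrophil growth factor gene Csf3 was at 2.44 CPM (0.296 to 8.81) in WT members from 2 UMIs and 98.2 (78.3 to 122) in cKO members from 84, of which 1 cell held 53.6%.

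Among chemokines, Ccl2 and Ccl7, which attract monocytes, were higher in the cKO sum. Ccl2 stood at 329 CPM (291 to 371) in WT members against 1079 (1010.1 to 1151) in cKO members (log2 ratio 1.71, 1.51 to 1.91), and Ccl7 at 132 CPM (108 to 159) in WT members against 637 (585 to 693) in cKO members (log2 ratio 2.27, 1.97 to 2.58). Ccl2 was detected in 22 of 124 WT members (17.7%, 11.5 to 25.6%) and 22 of 64 cKO members (34.4%, 22.9 to 47.3%), beside 6.02% and 6.07% of epithelial barcodes. In clusters 1, 3 and 4 alone its log2 ratio was -1.69, and in male-assigned members -2.78. The neutrophil chemokine Cxcl5 was at 448 CPM (403 to 496) in WT members against 1297 (1222 to 1376) in cKO members (log2 ratio 1.53, 1.36 to 1.71), but 1 cell held 48.5% of the WT and another 56.9% of the cKO UMIs, and without the deepest 5% of members the log2 ratio was -0.28. Cxcl1 differed by less than 2-fold, at 593 CPM (541 to 648) in WT members against 726 (669.7 to 785) in cKO members (log2 ratio 0.29, 0.12 to 0.47), and Cxcl2 was at 157 and 268 CPM, below its level in the immune barcodes (3131 and 6063 CPM). Cxcl1 and Cxcl2 were at -0.72 and -1.28 in clusters 1, 3 and 4 alone, and at -0.63 and -1.17 in male-assigned members, on the other side of 0. Of the 3 genes whose promoters are printed above, Il6 was past 2-fold over all members and Cxcl1 and Cxcl2 were not.

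Effectors of the inflammatory list went both ways. Tnfaip6, which binds hyaluronan in inflamed matrix, stood at 262 CPM (228 to 299.8) in WT members against 1727 (1640.2 to 1818) in cKO members (log2 ratio 2.72, 2.51 to 2.93), and was detected in 26 of 124 WT members (20.97%, 14.2 to 29.2%) and 30 of 64 cKO members (46.9%, 34.3 to 59.8%). The collagenase relative Mmp10 was lower in cKO, at 395 CPM (353 to 441) in WT members against 40.9 (28.5 to 56.9) in cKO members (log2 ratio -3.25, -3.82 to -2.77), and was found almost only in clusters 3 and 4 (687 and 1019 CPM). Of its UMIs in cluster 3, 78 came from the WT cell of that cluster named above. Ptgs2, the inducible enzyme of prostaglandin synthesis, was at 399 CPM (357 to 445) in WT members against 199 (169.9 to 231) in cKO members (log2 ratio -1.004, -1.28 to -0.73). The share of cells with a Ptgs2 UMI went the other way. It was 23 of 124 WT members (18.5%, 12.1 to 26.5%) and 24 of 64 cKO members (37.5%, 25.7 to 50.5%). At 1500 UMIs drawn per cell the expected shares were 10.4% and 14.8%. Saa3, an acute-phase apolipoprotein, was at 978 and 617 CPM, with 87.5% of the WT UMIs in 1 cell, and with each cell weighted equally its log2 ratio was 1.06 and without that cell 2.28, on the other side of 0. Pdpn (371 and 451 CPM) and Nfkbiz (265 and 399.6 CPM), a surface mucin and an NF-kB cofactor, differed by less than 2-fold.

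**Figure D3:**
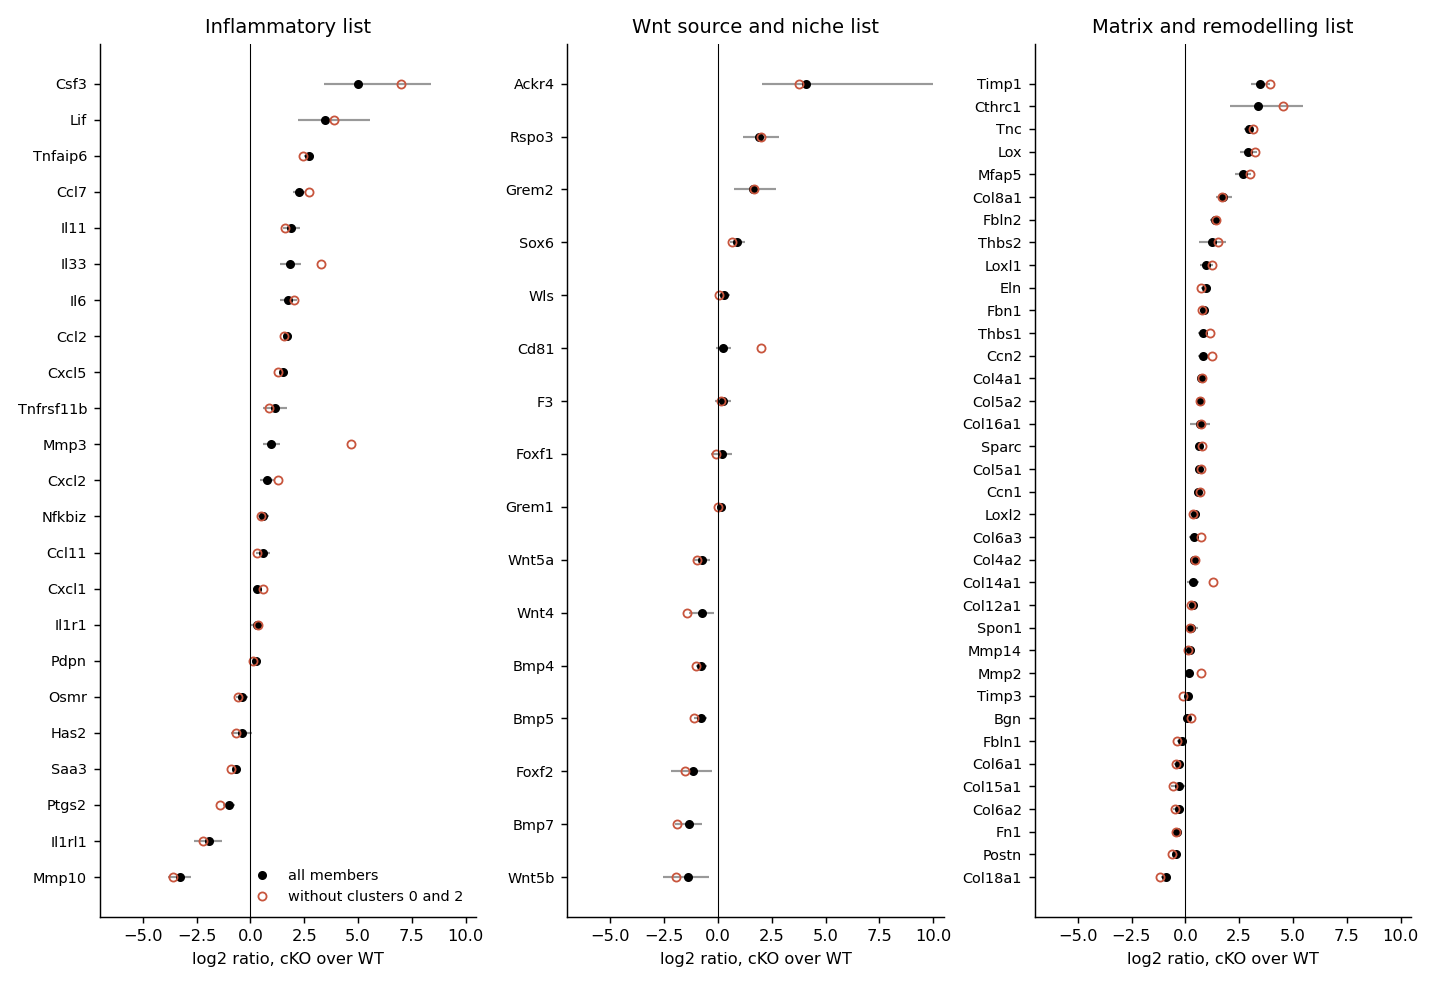
log2 ratio of cKO over WT in the member sums for each measured gene of the 3 lists, with exact 95% intervals over counts (grey lines). Filled points are all members and open red points the members without clusters 0 and 2. Most inflammatory and matrix genes lie right of 0, with Mmp10 and Il1rl1 far left, and the Wnt source list is split.

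Genes of the Wnt source list were split, and their sum was nearly equal. Of 25 genes 16 were measured, 9 higher and 7 lower in cKO, with 3 at least 2-fold each way and a median log2 ratio of 0.15, beside 4.57% higher and 6.23% lower of all measured genes. The list summed to 2751 CPM (2639 to 2867) in WT members against 2650.3 (2542 to 2762) in cKO members, with a log2 ratio of -0.054 (-0.14 to 0.031). Each cell weighted equally gave 0.57, and leaving out members with pericyte or smooth muscle UMIs -0.51. Within cluster 4, where the list was highest, the log2 ratio was 0.75 (0.57 to 0.92), and within cluster 1 -0.027 (-0.19 to 0.13).

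Among Wnt ligands and their partners, Wnt5a stood at 195 CPM (166 to 228) in WT members against 118 (96.1 to 143) in cKO members (log2 ratio -0.72, -1.10 to -0.36), and was found in 31 of 124 WT members (25%, 17.7 to 33.6%) and 21 of 64 cKO members (32.8%, 21.6 to 45.7%). At 1500 UMIs drawn per cell the expected shares for Wnt5a were 14.8% and 16.4%. Within cluster 4 Wnt5a was at 535 CPM for WT cells and 827 for cKO cells, in 14 of 16 and 6 of 6 cells. With each cell weighted equally the log2 ratio of Wnt5a was 0.68, and in male-assigned members 0.098, on the other side of 0. Wnt4 was at 82.96 and 49.1 CPM and at 0.34 with each cell weighted equally, and Wnt2b, Wnt2 and Wnt9a were under 20 CPM in both libraries. Rspo3, an R-spondin that amplifies Wnt signalling, was at 19.5 CPM (11.2 to 31.7) in WT members against 75.96 (58.6 to 96.8) in cKO members (log2 ratio 1.93, 1.15 to 2.85), from 16 and 65 UMIs, and was highest in cluster 5 (167 CPM). Wls, the carrier that Wnt ligands need to leave the cell, differed little (238 and 286 CPM). Foxl1, a marker of subepithelial telocytes, held 9 and 3 UMIs, and Gli1 12 and 5.

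The BMP ligand genes Bmp4, Bmp5 and Bmp7 were lower in the cKO sum, and their antagonist Grem1 differed within counting error. Bmp4 stood at 398 CPM (356 to 443) in WT members against 233 (201 to 267) in cKO members (log2 ratio -0.77, -1.04 to -0.52), Bmp5 at 321 CPM (283 to 362) in WT members against 183 (156 to 215) in cKO members (log2 ratio -0.80, -1.10 to -0.52), and Bmp7 at 91.5 and 36.2 CPM (log2 ratio -1.32, -1.99 to -0.72). With each cell weighted equally Bmp4 and Bmp5 were at 0.24 and 0.41, on the other side of 0. Grem1 stood at 703 CPM (647 to 763) in WT members against 769 (711 to 829.97) in cKO members (log2 ratio 0.13, -0.034 to 0.29), with 45 of 124 WT members (36.3%, 27.8 to 45.4%) and 32 of 64 cKO members (50%, 37.2 to 62.8%). At 1500 UMIs drawn per cell the expected shares for Grem1 were 26.8% and 33.1%. The list of 20 secreted Wnt and BMP antagonists summed to 2678 CPM (2567 to 2793) in WT members against 4980.4 (4832 to 5132) in cKO members, with a log2 ratio of 0.89 (0.82 to 0.97), with 7 of 15 measured genes at least 2-fold higher and 1 lower, beside 4.57% and 6.23% of all measured genes. Sfrp1, a soluble Wnt-binding protein, stood at 611 CPM (559 to 667) in WT members against 1768 (1680 to 1859) in cKO members (log2 ratio 1.53, 1.39 to 1.68), and was highest in cluster 5 (3079 CPM). In male-assigned members the antagonist list was at -0.58 and Sfrp1 at -0.98, on the other side of 0.

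Growth factor genes for the epithelium differed by cluster. Nrg1 stood at 1253 CPM (1178 to 1332) in WT members against 488 (443 to 538) in cKO members (log2 ratio -1.36, -1.53 to -1.19), and cluster 4, which holds 16 WT and 6 cKO cells, held most of it. Within cluster 4 Nrg1 was at 4867 CPM for WT cells and 2962 for cKO cells, detected in 16 of 16 and 4 of 6 cells, and within cluster 1 at 298 CPM for WT cells and 833 for cKO cells. The EGF receptor ligand Ereg was at 612 and 730.3 CPM and Igf1 at 555 and 675 CPM. Angptl4, which inhibits lipoprotein lipase, was at 20.7 CPM (12.1 to 33.2) in WT members against 111 (89.8 to 136) in cKO members (log2 ratio 2.39, 1.67 to 3.26). Of the 20 measured genes of 23 on this list, 13 were higher and 7 lower, with 2 at least 2-fold each way. Of all measured genes 4.57% were at least 2-fold higher and 6.23% lower. The summed list was slightly lower in cKO, at a log2 ratio of -0.079 (-0.149 to -0.0094).

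Matrix genes were mostly higher in the cKO sum, with the largest ratios in genes that lay in cluster 5. Of 37 genes 36 were measured, 29 higher and 7 lower, with 8 at least 2-fold higher, 0 at least 2-fold lower and a median log2 ratio of 0.61. Of all measured genes 4.57% were at least 2-fold higher and 6.23% lower. The list summed to 17381 CPM (17097 to 17669) in WT members against 24670 (24339 to 25005) in cKO members, with a log2 ratio of 0.51 (0.47 to 0.54). In clusters 1, 3 and 4 alone the log2 ratio was 0.17 (0.13 to 0.21), female-assigned members gave 1.06 (0.99 to 1.12) and male-assigned members -0.65 (-0.71 to -0.59). Collagens of the rule are matrix genes too, and cluster 5 was also the highest on the rule markers.

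Timp1, an inhibitor of metalloproteinases, stood at 58.6 CPM (43.2 to 77.6) in WT members against 656 (602 to 712) in cKO members (log2 ratio 3.47, 3.06 to 3.94). It was detected in 25 of 124 WT members (20.2%, 13.5 to 28.3%) and 35 of 64 cKO members (54.7%, 41.7 to 67.2%), and in 10.8% and 17.7% of epithelial barcodes. Tnc stood at 211 CPM (181 to 245) in WT members against 1647 (1562 to 1735) in cKO members (log2 ratio 2.96, 2.73 to 3.20), and Lox at 69.5 CPM (52.7 to 90.1) in WT members against 527 (479 to 578) in cKO members (log2 ratio 2.91, 2.52 to 3.35). Mfap5 was at 87.8 and 564 CPM and the elastic fibre gene Fbln2 at 276 and 712 CPM. In clusters 1, 3 and 4 alone the log2 ratios were 1.89 for Timp1, 1.63 for Tnc and 1.57 for Lox. In male-assigned members Tnc was at -3.38 and Fbln2 at -0.81, on the other side of 0. Sparc, a collagen-binding glycoprotein, was at 2101 CPM (2003 to 2203) in WT members against 3291 (3170.2 to 3415) in cKO members (log2 ratio 0.65, 0.56 to 0.73), but in male-assigned members at -0.79, on the other side of 0.

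Other abundant matrix genes differed by less than 2-fold, several of them lower in cKO. Fibronectin, Fn1, stood at 2017 CPM (1921 to 2116) in WT members against 1540.1 (1458 to 1626) in cKO members (log2 ratio -0.39, -0.49 to -0.28), periostin, Postn, at 907 CPM (842 to 974) in WT members against 678 (624 to 735) in cKO members (log2 ratio -0.42, -0.58 to -0.26), and Timp3 at 1070 and 1153 CPM. Fn1 was at 0.43 in female-assigned members, and Postn at 0.17 without members holding pericyte or smooth muscle UMIs, on the other side of 0. Col18a1 was at 654 CPM (599.8 to 712) in WT members against 348 (309.8 to 390.1) in cKO members (log2 ratio -0.91, -1.12 to -0.70) and was lowest in cluster 5 (19.3 CPM) and cluster 0 (39.9 CPM). Col4a1, also a basement membrane collagen, was at 743 and 1229 CPM. Cthrc1 and Lrrc15, markers of matrix-rich fibroblasts in other tumours, were sparse, with 4 WT and 48 cKO UMIs of Cthrc1 and 1 WT and 11 cKO UMIs of Lrrc15.

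Most interferon-induced and MHC class I genes were lower in the cKO sum, though not in every set of members. Of 38 genes 32 were measured, and 28 were lower and 4 higher, with 9 at least 2-fold lower and 1 at least 2-fold higher and a median log2 ratio of -0.81, beside 6.23% of all measured genes at least 2-fold lower and 4.57% higher. The list summed to 6015 CPM (5848 to 6185) in WT members against 3507 (3383 to 3635) in cKO members, with a log2 ratio of -0.78 (-0.84 to -0.71), and the ratio of the sums was below 0 under each of 17 alternatives, from -1.14 to -0.11. Gene by gene this was not so: in male-assigned members 18 of 36 measured genes were above 0, with a median of 0.018, and with each cell weighted equally 13 of 34 were above 0, with a median of -0.37. Within clusters 1, 2, 3 and 4 the log2 ratio was -0.29 (-0.41 to -0.18), -0.29 (-0.44 to -0.15), -1.45 (-1.64 to -1.26) and -0.43 (-0.62 to -0.24), where cluster 3 without the WT cell named above was at -0.16 (-0.47 to 0.17), an interval that includes 0. B2m, the light chain of MHC class I, stood at 1398 CPM (1318 to 1482) in WT members against 809.8 (751 to 872) in cKO members (log2 ratio -0.79, -0.93 to -0.65), and the GTPase gene Iigp1 at 487 CPM (440.2 to 537) in WT members against 166 (139.8 to 196) in cKO members (log2 ratio -1.55, -1.84 to -1.27). Of the heavy chain genes, H2-D1 was at 1236 and 671 CPM and H2-K1 at 1013 and 658 CPM. Ifit3, the gene at least 2-fold higher, was at 10.98 and 25.7 CPM from 9 and 22 UMIs. Its log2 ratio was -0.32 in female-assigned members, on the other side of 0. Cluster 5 was lowest on the list, at 2073 CPM (1916 to 2239), and clusters 1 and 4 were highest, at 6248 and 6202 CPM. The macrophage list, a measure of RNA from other cells, was also lower in cKO members, at 1647 and 754 CPM, as was the epithelial list, at 3886 and 2618 CPM. In male-assigned members the macrophage list was at 0.24 and the epithelial list at 0.70, on the other side of 0. Their part in the result was not tested.

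**Figure D4:**
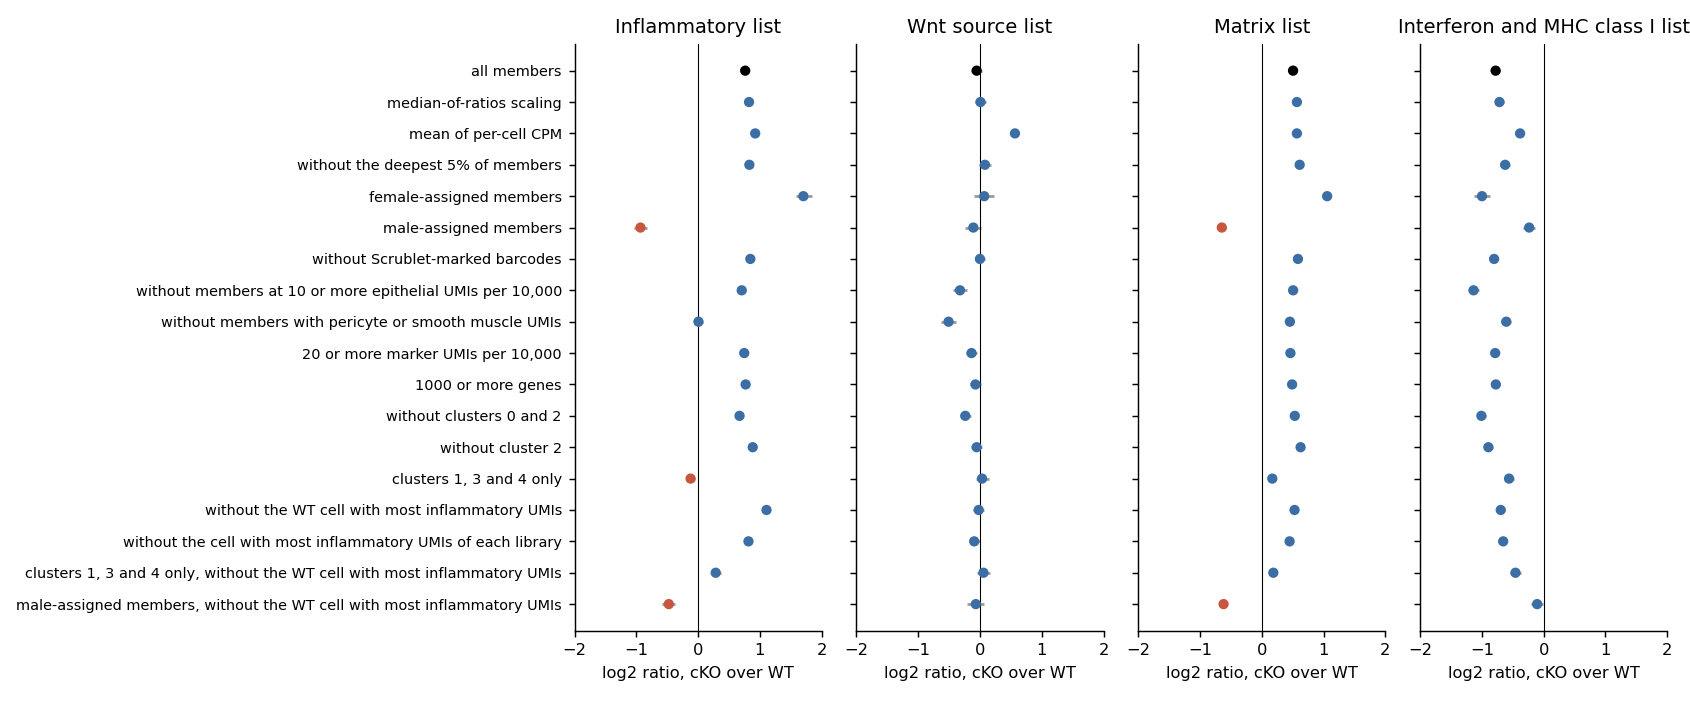
log2 ratio of cKO over WT for the summed UMIs of 4 gene lists (points) with exact 95% intervals where counts allow (grey lines), for all members (black), under each alternative (blue), and where a value called away from 0 changed sign (red). The inflammatory and matrix lists changed sign in male-assigned members, the inflammatory list also in clusters 1, 3 and 4 only, where it lies right of 0 without 1 WT cell, and the sum of the interferon list stayed left of 0 throughout.

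Contractile genes marked cluster 3 and were split between the libraries. Of 14, all measured, 7 were higher and 7 lower in cKO, 1 and 2 of them past 2-fold. Beside this and the counts of the lists below, 4.57% of all measured genes were at least 2-fold higher and 6.23% lower. Acta2 was at 440.4 and 506 CPM and Tagln, an actin-bundling gene of smooth muscle, at 281 and 348 CPM for WT and cKO members. Of the 11 measured complement genes 3 were higher and 8 lower, 1 each past 2-fold. Of the 17 measured genes of the TGF-beta axis 10 were higher and 7 lower, 1 each past 2-fold. Of the 10 genes of the Pi16 type 9 were measured, 6 higher and 3 lower, with 1 past 2-fold.

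Across all genes, 371 of 8118 measured were at least 2-fold higher in cKO and 506 at least 2-fold lower. The largest ratios each way were taken among 523 and 404 genes that had 50 CPM in a library, UMIs in 10% of its cells, the same direction with cells weighted equally and a level not far below that of other cell classes. Among the 12 higher in cKO were Adamtsl3, Csf3, Cpxm1, Prrx1, Dnah12, Depdc5, Timp1, Ptx3, Lgr5, Tnc and Lox. Ptx3, a soluble pattern receptor, stood at 29.3 and 251 CPM and the mesenchymal transcription factor gene Prrx1 at 4.88 and 81.8 CPM. One cell held 83.5% of the cKO UMIs of Depdc5 and 1 cell 63.3% of those of Lgr5, which lay in cluster 2 and without that cluster was at -0.33. Adamtsl3 was seen in 0.806% of WT and 18.8% of cKO members, from 1 and 55 UMIs. In male-assigned members Cpxm1, Prrx1 and Ptx3 were at -1.02, -1.37 and -4.66, on the other side of 0. Prrx1 held no cKO UMI in them. Its few WT UMIs there all came from the WT cell with most inflammatory UMIs. Cpxm1 was at -0.24 and Ptx3 at -3.47 in clusters 1, 3 and 4 alone.

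Lower in cKO were Gbp5, Ces1d, Gsdmc4, Spock3, Epha3, Gdf10, Ces1g, Zfp536, Il1rl1, Thsd4, Ifih1 and Adam23. Gbp5, an interferon-induced GTPase, stood at 76.9 and 4.67 CPM and Ifih1, a sensor of double-stranded RNA, at 97.6 and 26.9 CPM, with 61.9% and 48.8% of the WT UMIs in 1 cell. The carboxylesterase gene Ces1d was at 57.3 and 3.51 CPM, its relative Ces1g at 79.3 and 16.4 CPM, and the neural-type proteoglycan gene Spock3 at 86.6 and 7.01 CPM. Epha3 (105 and 9.35 CPM) and Gdf10 (53.7 and 9.35 CPM) came from cluster 0, and without clusters 0 and 2 WT members held 0 UMIs of either and cKO members 8 of each. Cxcl13 was also lower in the sum (355 and 160.1 CPM) but at 0.63 with cells weighted equally.

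The other genes named in the title of the series did not differ beyond counting error in fibroblasts. Tfrc, the transferrin receptor gene, stood at 51.2 CPM (36.9 to 69.3) in WT members against 44.4 (31.4 to 60.9) in cKO members (log2 ratio -0.20, -0.88 to 0.46), and E2f4 at 24.4 CPM (14.9 to 37.7) in WT members against 31.6 (20.8 to 45.9) in cKO members (log2 ratio 0.36, -0.52 to 1.28), from 20 and 27 UMIs. Both intervals included 0, as did that of Mtch2 above, so a difference inside them was not detectable at this depth.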

How the data were processed

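The authors deposited a matrix of UMI counts per gene and barcode for each library, and per the file headers these come from Cell Ranger 7.2.0. Build mm10, Cell Ranger and Seurat 3.0 are named in the submitters' processing notes. The counts are raw, and their totals were 116066712 in WT and 97364087 in cKO. Members, marker lists and tests were chosen with earlier results of these data known.

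Counts of members were summed per library and scaled to CPM with exact Poisson 95% intervals. A log2 ratio is cKO over WT with 0.5 counts added, with an exact conditional binomial interval, and shares have Clopper-Pearson intervals. Genes at 20 CPM or more in either library count as measured. Clusters came from scanpy 1.11.5 and Leiden (leidenalg 0.10.2, resolution 0.5) on 1000 variable genes, 15 components and 15 neighbours, without integration. Scrublet scores, from scanpy, were cut at 0.8% doublets per 1000 barcodes, and marked barcodes were kept.

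Named genes are members of the 3 subset lists, leading genes of the other lists, the genes highest in members against other classes, and the 12 largest ratios each way among genes at 50 CPM or more in 1 library, in 10% or more of its members, of the same sign with cells weighted equally, with an interval that leaves out 0 and at 50% or more of the level of any other class. Alternatives varied scaling, weighting, filters, sex, doublets, other-cell RNA and clusters. The ratios and intervals were tested on simulated sums with independent Poisson counts. Those do not hold the clumping of UMIs in single cells seen here, so the test says nothing about it. Some genes that this rule picks are not reported here.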

Additional observations from a re-analysis of the deposited data

Results flagged for a closer look

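The ratios below differ between sets of members of the same 2 libraries, and none of these differences was tested. The inflammatory list was higher in cKO among female-assigned members, at 1.70, and lower among male-assigned members, at -0.93, a gap of 2.64 on the log2 scale. The matrix list differed the same way, at 1.06 and -0.65, a gap of 1.71. The groups are small, with 25 WT and 24 cKO members assigned female and 44 and 18 assigned male. Members with both Xist and Y-linked UMIs (8 WT and 10 cKO) or with neither (47 and 12) were left out of them. The groups also differed in their clusters. Of the WT members, cluster 0 held 9 female-assigned and 13 male-assigned, cluster 1 held 1 and 18, and cluster 2 held 7 and 1. Of the cKO members, cluster 5 held 9 female-assigned and 4 male-assigned, and cluster 1 held 4 and 9. The part of cluster make-up in these gaps was not tested. A single cell held 36.6% of the inflammatory list UMIs of the female-assigned cKO members and another 32.1% of those of the male-assigned WT members, without which male-assigned members were at -0.47 on that list.

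Within clusters that both libraries fill, cluster 1 gave 0.68 (0.58 to 0.77) for the inflammatory list and cluster 3 gave -2.48 (-2.64 to -2.32), a gap of 3.15. The WT cells of cluster 3 number 9, and 1 of them held 1130 of their 1209 list UMIs, without which cluster 3 was at 0.35 (0.0087 to 0.72). For the Wnt source list cluster 4 gave 0.75 (0.57 to 0.92) and cluster 3 -0.30 (-0.57 to -0.029), a gap of 1.05, where cluster 3 without the same cell was at 0.40 (-0.014 to 0.86). For the matrix list cluster 1 gave 0.31 (0.25 to 0.37) and cluster 2 -0.82 (-0.93 to -0.71), a gap of 1.13, where cluster 2 is the one that carries epithelial RNA throughout.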

How the results depend on the processing

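Values are log2 ratios of cKO over WT unless they are counts, the cause of a move was not tested, and all intervals cover counting error only. In all members 371 genes were at least 2-fold higher and 506 lower, and the inflammatory, Wnt source, matrix and interferon lists were at 0.76, -0.054, 0.51 and -0.78. The sum of the interferon list kept its sign under all 17 alternatives. The alternatives on clusters and on the cells with most inflammatory UMIs were chosen after seeing the data. A change of sign is listed here for a list whose interval leaves out 0 and for a named gene past 2-fold whose interval does so, and the report gives further changes of sign beside Bmp4, Bmp5, Wnt4, Wnt5a, Saa3, Cxcl1, Cxcl2, Sparc, Fn1 and Postn. The Wnt source list, whose interval includes 0, lay on either side of 0. With median-of-ratios scaling, the inflammatory list was at 0.82 and the matrix list at 0.57. With no filter on low levels, 2486 genes were at least 2-fold higher and 3158 lower. With a filter at 50 CPM, 182 genes were at least 2-fold higher and 181 lower. With each cell weighted equally, 829 genes were at least 2-fold higher and 1158 lower, and the inflammatory list was at 0.92, the Wnt source list at 0.57, the matrix list at 0.57 and the interferon list at -0.38. There the sign changed for the growth factors for epithelium and stroma list (0.23) and Cxcl13 (0.63). Without the deepest 5% of members, 830 genes were at least 2-fold lower, and the inflammatory list was at 0.83, the Wnt source list at 0.080, the matrix list at 0.61 and the interferon list at -0.62. The sign then changed for Cxcl5 (-0.28). In female-assigned members, 896 genes were at least 2-fold higher and 1641 lower, and the inflammatory list was at 1.70, the Wnt source list at 0.069, the matrix list at 1.06 and the interferon list at -0.999. A change of sign was seen for the contractile and myofibroblast list (-0.55) and Ifit3 (-0.32). In male-assigned members, 1115 genes were at least 2-fold higher and 790 lower, and the interferon list was at -0.23. There the sign changed for the inflammatory list (-0.93), the matrix list (-0.65), the rule markers list (-0.52), the fibroblast identity outside the rule list (-0.80), the secreted Wnt and BMP antagonists list (-0.58), the chemokines list (-0.63), the epithelial list (0.70), the macrophage and monocyte list (0.24), Il6 (-0.31), Il11 (-3.72), Cxcl5 (-3.20), Ccl2 (-2.78), Tnc (-3.38), Fbln2 (-0.81), Cpxm1 (-1.02), Prrx1 (-1.37), Ptx3 (-4.66) and Sfrp1 (-0.98). Without marked doublets, the inflammatory list was at 0.85 and the matrix list at 0.58. Without members at 10 or more epithelial UMIs per 10000, 635 genes were at least 2-fold higher and 1087 lower, and the inflammatory list was at 0.71, the Wnt source list at -0.32 and the interferon list at -1.14. A change of sign was seen for the contractile and myofibroblast list (-0.029), Il1rl1 (0.48), Lgr5 (-0.066), Epha3 (3.37) and Gdf10 (2.98). Without members holding pericyte or smooth muscle UMIs, the inflammatory list was at 0.0058, the Wnt source list at -0.51, the matrix list at 0.45 and the interferon list at -0.61. There the sign changed for the chemokines list (-0.014), the contractile and myofibroblast list (-0.51), the pericyte list (-0.25) and Cxcl5 (-0.78). Members were left out by UMIs of the pericyte list and of the contractile genes Myh11, Actg2, Des and Cnn1. The changes of the contractile and pericyte lists are therefore partly built in. At 20 or more marker UMIs per 10000, the matrix list was at 0.46. Without clusters 0 and 2, 793 genes were at least 2-fold lower, and the inflammatory list was at 0.67, the Wnt source list at -0.24 and the interferon list at -1.01. A change of sign was seen for Epha3 (3.72) and Gdf10 (3.72). Without cluster 2, 837 genes were at least 2-fold lower, and the inflammatory list was at 0.88, the matrix list at 0.63 and the interferon list at -0.90. There the sign changed for Lgr5 (-0.33). In clusters 1, 3 and 4 only, 608 genes were at least 2-fold higher, and the Wnt source list was at 0.034, the matrix list at 0.17 and the interferon list at -0.56. Signs then changed for the inflammatory list (-0.12), the adventitial Pi16 type list (-0.34), Il6 (-0.15), Ccl2 (-1.69), Il33 (-2.61), Cpxm1 (-0.24) and Ptx3 (-3.47). Epha3 (0.56) and Gdf10 (0.56) held no UMI there in either library. Without the WT cell with most inflammatory UMIs, the inflammatory list was at 1.11 and the interferon list at -0.70. Without that cell and its counterpart in cKO, the inflammatory list was at 0.82, the matrix list at 0.45 and the interferon list at -0.66. With clusters 1, 3 and 4 only and without that WT cell, 590 genes were at least 2-fold higher, and the inflammatory list was at 0.28, the Wnt source list at 0.057, the matrix list at 0.19 and the interferon list at -0.46. The sign then changed for the adventitial Pi16 type list (-0.40), Il6 (-0.24), Ccl2 (-1.15), Il33 (-2.70), Cpxm1 (-0.20) and Ptx3 (-3.56). Epha3 (0.47) and Gdf10 (0.47) again held no UMI in either library. In male-assigned members without that WT cell, 1151 genes were at least 2-fold higher and 842 lower, and the interferon list was at -0.11. A change of sign was seen for the inflammatory list (-0.47), the matrix list (-0.62), the rule markers list (-0.37), the fibroblast identity outside the rule list (-0.70), the secreted Wnt and BMP antagonists list (-0.50), the chemokines list (-0.41), the epithelial list (0.62), the macrophage and monocyte list (0.15), Il6 (-0.41), Il11 (-3.43), Cxcl5 (-2.25), Ccl2 (-2.24), Tnc (-3.40), Fbln2 (-0.89), Cpxm1 (-0.98), Ptx3 (-4.76) and Sfrp1 (-1.07). The negative value of the inflammatory list in clusters 1, 3 and 4 only thus rests on that 1 cell. The Epha3 and Gdf10 ratios above 0 are set against 0 WT UMIs and are no bounds. In clusters 1, 3 and 4 only, neither gene held a UMI in either library. The values printed for them there come only from the 0.5 counts added and the unequal UMI totals. They are not counted as changes of sign. In male-assigned members Prrx1 held no cKO UMI. With 10 or more marker UMIs the WT share of members was 1.65%, and over barcodes that are not epithelial the shares were 8.52% and 3.22%. Of the members 42.6% lay in clusters of 1 library, and 42.6% to 43.1% did so in 3 other clusterings. A scaling by median of ratios moved the median of all genes by less than 0.1. No paired analysis was possible because each genotype is 1 library, and no replicate could be left out.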

Other observations

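Haemoglobin RNA was uneven among WT members. One WT cell of cluster 1 held 3061 haemoglobin UMIs, the cells of cluster 0 at most 191, and the cells of clusters 2 to 5 at most 4. In epithelial barcodes the level was 1.09 UMIs per 10000 in WT and 3.46 in cKO, higher in the library whose fibroblasts held less.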
